A study of Sus scrofa with 35 samples.

Results

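A small set of array probes did not vary smoothly between pigs but fell into separate levels, with some pigs high, the others low and an empty stretch between them. The 35 log2 values of each probe of the deposited table were sorted, and a probe was retained when the widest gap between neighbouring values was at least 1.5 log2 units with at least 4 pigs on either side. Of 39072 probes, 28 met the rule, and they hold 26 different sequences. A gap of at least 1.5 without the condition on the number of pigs was found for 211 probes. In 175 of these a single pig stood apart, in 8 probes 2 pigs stood apart and in 0 probes 3 pigs. The members were thus chosen by their log2 levels, and levels, gaps and counts of pigs on either side are given as a description, without a test.

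Whole blood RNA of 35 castrated male pigs was hybridised to single-channel arrays, 1 array for each pig. The pigs were of the Creole breed (CR), a local breed of the Caribbean, of the Large White breed (LW), a commercial European breed, or of the cross of both (F1). The CR pigs were 5 in thermoneutral conditions (TN) and 6 under heat stress (HS), and the F1 and LW pigs were 6 in each. TN pigs were kept at 24 °C. For HS the labels give 30 °C and the protocol text 32 °C, with an exposure of 5 d, and the methods of the study also allow 1 day less. Pigs entered the climate room at 11 weeks of age. Per the methods, a breed was made up of 3 blocks of 4 littermates spread over its pens, so pigs of a breed include siblings. The labels hold no litter, pen, sire or dam, and every SE and p-value here treats the pigs as independent, although a breed held only 3 such blocks. Pigs are numbered within a group in the order of the sample records, which pairs no animals.

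A probe of 60 bases reports the RNA that pairs with it, so its value depends on the amount of a transcript and on how well the sequence of that transcript matches the probe. Mitochondrial DNA passes from the dam to all her offspring, and its 13 protein genes encode core subunits of the respiratory chain, with ND1 and ND2 in complex I and COX1, COX2 and COX3 in complex IV. Whole blood is a mixture of red cell precursors, platelets and white cells, and fewer cells of a type and less RNA per cell cannot be told apart in it.

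By gene symbol, the 28 probes include 4 of mitochondrial genes, on COX1, COX2, COX3 and ND2, and 3 on PGM1, the phosphoglucomutase that interconverts glucose phosphates. RNASE10, a ribonuclease A family member annotated as non-active, the uncharacterised gene LOC100519082 and the unnamed transcript record AK230483 had 2 probes each. Of these genes, LOC100519082 had the same 60 bases printed under 2 probe names, and so had 2 of the 3 probes of PGM1. SELENOF (a selenoprotein of the endoplasmic reticulum, SEP15 in the files), SOD2 (the mitochondrial superoxide dismutase), HSPE1 (the co-chaperonin of HSP60), TNNI1 (troponin I of slow skeletal muscle), TOR3A (a torsin ATPase) and LOC100524282 (annotated as similar to ribosomal protein L37a) had 1 each. The other members were transcript records without a gene name here (AK238381, EV893191 and 6 assembled records with a TC number) and the probe A_72_P774083. In total 16 of the 28 probes had a RefSeq symbol (57.1%), against 43.0% of all probes of the table.

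Sequences of member probes are printed with an overlapping probe of the same or a similar transcript, because the comparison between such probes carries much of the description. Capitals mark the longest run of bases that the probes of a pair share, and all sequences are written 5′ to 3′ as the array files give them. The mitochondrial members and their overlapping probes were the following.
COX1 A_72_P762153 (separate levels): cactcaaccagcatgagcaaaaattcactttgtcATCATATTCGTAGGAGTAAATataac
COX1 A_72_P721538 (no wide gap): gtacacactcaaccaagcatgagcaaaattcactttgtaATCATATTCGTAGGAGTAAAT
ND2 A_72_P719508 (separate levels): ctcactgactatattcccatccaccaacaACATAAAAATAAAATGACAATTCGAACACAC
ND2 A_72_P727968 (no wide gap): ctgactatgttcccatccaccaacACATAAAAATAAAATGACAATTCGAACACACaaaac
COX2 A_72_P746371 (separate levels): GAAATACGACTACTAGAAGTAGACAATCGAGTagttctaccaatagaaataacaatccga
COX2 A_72_P751248 (no wide gap): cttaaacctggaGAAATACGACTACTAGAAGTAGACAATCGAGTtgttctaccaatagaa
COX3 A_72_P760010 (separate levels): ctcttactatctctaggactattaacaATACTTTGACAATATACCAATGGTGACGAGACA
COX3 A_72_P759028 (no wide gap): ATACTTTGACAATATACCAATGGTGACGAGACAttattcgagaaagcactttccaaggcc

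Within the overlap, the substitution between the probes was C34A for COX1, A13G for ND2 and A33T for COX2, with the base of the member first, its position from the 5′ end of the member, and then the base of the overlapping probe. The COX1 pair also differed by 2 inserted or missing bases and the ND2 pair by 1. For COX3 the 33 shared bases held 0 differences, and the remaining 27 bases of the member lie before them.

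Of the nuclear transcripts, SELENOF is given with an overlapping probe of the same gene, LOC100524282 with a probe of another transcript record, AK230483 with the probe OTTSUST00000000500, and A_72_P774083 with a probe of RPL6.
SELENOF CUST_56_PI427286967 (separate levels): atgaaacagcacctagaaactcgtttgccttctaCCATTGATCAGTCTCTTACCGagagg
SELENOF A_72_P562884 (no wide gap): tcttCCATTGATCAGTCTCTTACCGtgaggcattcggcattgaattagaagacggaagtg
LOC100524282 A_72_P706695 (separate levels): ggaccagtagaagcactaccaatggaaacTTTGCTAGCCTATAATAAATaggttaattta
AK346581 A_72_P514819 (no wide gap): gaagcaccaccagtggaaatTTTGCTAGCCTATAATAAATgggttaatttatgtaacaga
AK230483 A_72_P788198 (separate levels): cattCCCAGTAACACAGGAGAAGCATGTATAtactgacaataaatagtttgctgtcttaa
OTTSUST00000000500 (same pigs high, narrower gap): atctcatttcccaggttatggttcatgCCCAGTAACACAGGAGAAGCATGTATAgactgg
A_72_P774083 (separate levels): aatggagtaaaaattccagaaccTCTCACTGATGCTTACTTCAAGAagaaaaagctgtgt
RPL6 A_72_P756548 (same pigs low, narrower gap): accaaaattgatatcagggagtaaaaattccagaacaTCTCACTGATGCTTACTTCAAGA

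The SELENOF pair differed by A34T and A56T over 30 overlapping bases. For LOC100524282 the differences were T17C, A22G, C29T and A50G over 51 bases, and for AK230483 they were T4G, T32G and A37G over 37 bases. Members without such a partner are shown for AK238381, for LOC100519082 and for the second probe of AK230483, which shares only 7 bases with the probe above.
AK238381 A_72_P416258: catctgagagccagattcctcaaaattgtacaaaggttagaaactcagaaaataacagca
LOC100519082 A_72_P402708: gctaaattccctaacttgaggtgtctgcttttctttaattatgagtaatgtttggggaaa
AK230483 A_72_P742057: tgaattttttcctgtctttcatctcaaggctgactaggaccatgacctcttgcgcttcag

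The median GC content of the member probes was 35%, against 43.3% of all probes, and their median mean level was 8.30 against 7.12 on the log2 scale. The median widest gap was 1.96 in the members and 0.21 over all probes. Among the 26 sequences the side with fewer pigs lay above the gap in 10 and below it in 16. Pigs on the upper side were well above background for all 26 sequences. Pigs on the lower side were well above background on every array for 12 sequences and on no array for 4. The lower level was thus a measured signal for some probes and background for others.

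Breed was uneven across the sides. All pigs below the gap were CR in 5 sequences (AK238381, COX3, COX2, LOC100524282 and TC558494) and LW in 2 (TC550996 and TC540974), and in 0 sequences were they all F1. In 0 sequences were all pigs above the gap of 1 breed. No LW pig lay above the gap in 5 sequences, those of AK230483, RNASE10 and SELENOF, and all 12 F1 pigs lay above it in 9. Pigs of all 3 breeds lay on both sides in 6 sequences. The share of all probes split by breed in these ways is not given here, so the counts are a description. Nor are the sequences separate cases: COX2 and COX3 parted the same pigs, and AK230483 and RNASE10 count with 2 sequences each. Both sides held TN and HS pigs in 25 of 26 sequences. The number of sequences in which a pig was on the side with fewer pigs was 5 to 12 in CR (median 10), 1 to 6 in F1 (median 3) and 3 to 11 in LW (median 6.5).

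With pigs assigned to sides, the members fell into 21 sets that split the same pigs, where up to 1 pig was allowed to differ. Of these sets, 15 held 1 probe. The others were the 3 probes of PGM1, the 2 of AK230483, the 2 of LOC100519082, the 2 of RNASE10, COX1 with ND2, and COX2 with COX3, and in each of these 6 sets all 35 pigs lay on the same side with every probe. The probes of AK230483 share only 7 bases and those of RNASE10 only 5, so each of these splits was seen on unrelated stretches of sequence.

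Differences between breeds were tested with limma over all 39072 probes, with breed and climate in the model and Benjamini-Hochberg adjustment at 0.05. The rule picks probes with a wide spread between pigs, which raises the size of any group difference, so the shares below are a description. For CR minus LW, 8 of 28 members were called (28.6%), against 1.08% of all probes. Of these 8, 6 were higher in CR (0.571% of all probes) and 2 lower (0.507%). The 6 include both probes of LOC100519082, which have the same sequence, and both probes of AK230483. For F1 minus CR, 6 of 28 were called (21.4%), against 0.184% of all probes, with 4 higher in F1 (0.107%) and 2 lower (0.0768%). The 2 lower were both of AK230483. For F1 minus LW, 0 of 28 were called, against 0.0256%, although 1 member was called when F1 HS pig 2 was left out. For this contrast the median absolute difference was 1.04 in the members and 0.074 over all probes. The median absolute difference was 1.51 in the members and 0.087 over all probes for CR minus LW.

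AK230483, the record of a clone from alveolar macrophages, had the widest gap of the members (5.59). With probe A_72_P788198 the CR TN pigs had log2 values of 11.54, 11.47, 11.09, 12.19 and 5.11. The CR HS pigs ranged from 5.30 to 11.93 with a median of 11.49. F1 pigs ranged from 4.76 to 10.92 (median 5.04) in TN and from 4.86 to 11.31 (median 5.19) in HS. So 9 of 11 CR pigs and 1 F1 pig in each climate lay above the empty stretch from 5.33 to 10.91, and all 12 LW pigs lay below it. LW pigs ranged from 4.77 to 5.26 in TN and from 4.78 to 5.22 in HS, with medians of 5.03 and 5.04.

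The difference CR minus LW was 5.34 ± 0.80 (SE, adjusted p = 0.000135, limma), and F1 minus CR was -4.32 ± 0.80 (adjusted p = 0.00799). On LW HS arrays this probe was not well above background, which gives a bound: CR HS pigs (mean 10.45) were at least 38.8-fold and CR TN pigs (mean 10.28) at least 34.5-fold higher than LW HS pigs (mean 5.03). The other probe, A_72_P742057, was well above background on all arrays, and its mean was 12.67 ± 1.11 (SD) in CR TN and 12.52 ± 1.04 in CR HS, against 10.08 ± 0.30 in LW TN and 10.19 ± 0.12 in LW HS. Its gap was 1.73, from 10.81 to 12.54, and the 11 pigs above it were those above the gap of the first probe. CR minus LW was 2.45 ± 0.35 (adjusted p = 5.71e-05, limma) and F1 minus CR was -1.87 ± 0.35 (adjusted p = 0.008). On the probe OTTSUST00000000500, which overlaps the first, the gap was 0.57, the same 11 pigs lay above it, and CR minus LW was 1.49 ± 0.23 (adjusted p = 0.000155).

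LOC100519082 was high in nearly all CR pigs, in some F1 pigs and in 1 LW pig. With probe A_72_P402708 the CR TN pigs had 9.78, 14.75, 14.83, 14.32 and 14.42. The CR HS pigs lay between 14.16 and 15.47 (median 14.74). F1 pigs ranged from 8.69 to 13.71 (median 9.81) in TN and from 9.25 to 15.08 (median 12.27) in HS. The split thus ran through the F1 pigs, with 2 of 6 TN pigs and 3 of 6 HS pigs above the empty stretch from 10.29 to 13.68. LW pigs ranged from 8.77 to 9.44 (median 8.98) in TN and from 8.70 to 14.70 (median 9.15) in HS, where LW HS pig 4 was the only LW pig above. All arrays were well above background on both sides. For CR minus LW the difference was 4.62 ± 0.73 (adjusted p = 0.000218, limma), while F1 minus CR (-2.67 ± 0.73, adjusted p = 0.188) and F1 minus LW (1.95 ± 0.71, adjusted p = 0.823) did not pass the threshold. Without CR TN pig 1 the difference F1 minus CR was -3.08 with an adjusted p of 0.0431.

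SELENOF was the only member with all CR pigs on one side of the gap and all LW pigs on the other. The CR TN pigs had 7.85, 7.29, 7.23, 8.36 and 8.23, and the CR HS pigs 7.20 to 8.57 (median 7.78). LW pigs had 4.82 to 5.15 (median 4.96) in TN and 4.80 to 5.25 (median 4.92) in HS. All 11 CR pigs lay above and all 12 LW pigs below the stretch from 5.32 to 6.91. The share of all probes on which CR and LW pigs do not overlap is not given here, so this is a description. F1 pigs had 5.01 to 7.11 (median 6.12) in TN and 4.83 to 8.29 (median 7.82) in HS, with 3 of 6 and 4 of 6 above. The difference CR minus LW was 2.83 ± 0.34 (adjusted p = 2.94e-06, limma). None of the 12 LW arrays had this probe well above background, so CR pigs (mean 7.82) were at least 6.38-fold higher than LW pigs (mean 4.98). For F1 pigs (mean 6.55) the fold of the group mean over LW pigs was 2.64. Only 7 of 12 F1 arrays were well above background and the others entered as read, so 2.64 is not a lower bound. F1 minus LW was 1.57 ± 0.33 (adjusted p = 0.0836, limma).

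The other 5 probes of SELENOF had no such levels: their widest gap with 4 pigs on either side was at most 0.26 and 0 of them were called for CR minus LW. On the overlapping probe A_72_P562884, which differs by A34T and A56T, values lay between 9.44 and 10.77 in all pigs, and CR minus LW was -0.02 ± 0.13 (adjusted p = 0.983, limma). The division between CR and LW was thus seen with the member probe and not with the other probes of the gene. Whether the amount of a transcript form or its sequence under the probe differed was not tested.

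LOC100524282 was lower in CR. The CR TN pigs had 5.56, 9.49, 9.08, 5.35 and 6.02, and the CR HS pigs ranged from 5.16 to 10.30 (median 7.57). F1 pigs ranged from 8.96 to 11.02 (median 9.74) in TN and from 8.41 to 10.43 (median 9.79) in HS. LW pigs ranged from 10.46 to 11.11 (median 10.71) in TN and from 9.79 to 11.29 (median 10.77) in HS. The 6 pigs below the stretch from 6.02 to 8.41 were all CR, 3 of 5 in TN and 3 of 6 in HS, while the CR pigs above it overlapped the F1 pigs. CR minus LW was -3.36 ± 0.50 (adjusted p = 0.000134, limma) and F1 minus CR was 2.32 ± 0.50 (adjusted p = 0.0334). The second of these calls was lost without any of 12 pigs in turn, with adjusted p-values up to 0.085. The probe A_72_P514819, with 4 substitutions over the overlap, lay between 12.96 and 14.64 in all pigs, and its CR minus LW was -0.15 ± 0.16 (adjusted p = 0.873, limma).

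TC540974 and TC558494 are assembled transcripts without a gene name here. For TC540974 the CR TN pigs had 9.20, 8.83, 9.06, 8.83 and 8.88, and the CR HS pigs 8.73 to 9.45 (median 9.11). F1 pigs had 7.59 to 9.01 (median 8.66) in TN and 8.17 to 9.26 (median 8.45) in HS. LW pigs ranged from 5.23 to 8.29 (median 5.49) in TN and from 5.32 to 9.48 (median 6.97) in HS. Only LW pigs, 7 of 12, lay below the stretch from 5.63 to 7.59, and the other 5 LW pigs overlapped CR and F1. CR pigs exceeded LW pigs by 2.24 ± 0.43 (adjusted p = 0.0028, limma), and F1 minus LW was 1.74 ± 0.42 (adjusted p = 0.162).

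For TC558494 the CR TN pigs had 5.73, 5.15, 5.59, 9.12 and 8.25, and the CR HS pigs 6.23 to 9.39 (median 8.52). F1 pigs had 8.14 to 9.20 (median 8.77) in TN and 8.29 to 9.34 (median 8.82) in HS, and LW pigs 9.03 to 9.29 (median 9.14) and 8.81 to 9.30 (median 9.05). Only 4 CR pigs were below the stretch from 6.23 to 8.01, 3 of 5 in TN and 1 of 6 in HS. For CR minus LW the difference was -1.52 ± 0.36 (adjusted p = 0.0247, limma). That call was lost without CR TN pig 1 (-1.34, adjusted p = 0.0542), CR TN pig 3 (-1.33, 0.0521) or CR HS pig 3 (-1.36, 0.0528).

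The COX1 and ND2 members separated F1 from most pigs of the parent breeds. With the COX1 probe the CR TN pigs had 12.61, 7.32, 7.41, 8.70 and 8.73, and the CR HS pigs 6.41 to 12.51 (median 8.21). F1 pigs had 11.29 to 13.54 (median 12.55) in TN and 12.64 to 13.67 (median 13.20) in HS. LW pigs had 7.04 to 12.84 (median 9.12) in TN and 7.14 to 12.91 (median 8.49) in HS. Above the stretch from 9.23 to 10.94 lay all 12 F1 pigs, with 2 of 11 CR pigs (CR TN pig 1 and CR HS pig 1) and 4 of 12 LW pigs (LW TN pigs 1 and 2, LW HS pigs 2 and 3). F1 minus CR was 4.03 ± 0.71 (adjusted p = 0.00498, limma), F1 minus LW was 3.20 ± 0.69 (adjusted p = 0.0877), and CR minus LW was -0.83 ± 0.71 (adjusted p = 0.815).

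With the ND2 probe the same 18 pigs were high. The CR TN pigs had 13.01, 8.90, 8.69, 10.04 and 9.82, and the CR HS pigs 8.10 to 12.83 (median 9.47). F1 pigs had 12.06 to 13.24 (median 12.98) in TN and 13.13 to 13.62 (median 13.20) in HS, while LW pigs had 8.50 to 13.23 (median 10.00) and 8.49 to 13.25 (median 9.34). F1 minus CR was 3.22 ± 0.58 (adjusted p = 0.00597, limma), and F1 minus LW was 2.57 ± 0.57 (adjusted p = 0.0976).

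Beyond these members, the same 18 pigs lay above the widest gap on 2 probes of ND1 and 1 further probe of ND2, with gaps of 1.34 (ND1, A_72_P745561), 0.58 (ND1, A_72_P769233) and 0.70 (ND2, A_72_P737152), and 1 pig differed on another ND2 probe (A_72_P734766, gap 0.29). These were found by a search over all probes that was made after the values had been seen. F1 minus CR was 2.89 (adjusted p = 0.00895, limma) on the first ND1 probe and 1.95 (adjusted p = 0.00907) on that ND2 probe. These ND1 and ND2 probes were picked for this split, so their agreement and p-values are a description. The COX1 and ND2 members, chosen by their gaps, shared it. Among the 20 probes of ND1 and 12 of ND2, from 4 to 35 pigs lay on the same side as with COX1.

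The COX2 member had more than 1 gap. CR TN pigs had 12.26, 7.96, 8.14, 5.57 and 5.67, and CR HS pigs 5.67 to 11.67 (median 8.03). F1 pigs had 11.56 to 12.42 (median 11.91) in TN and 12.21 to 12.90 (median 12.47) in HS, and LW pigs had 8.55 to 12.43 (median 9.57) and 7.85 to 12.45 (median 8.95). The widest gap, 1.95, lay between 5.81 and 7.76 and parted 4 CR pigs (CR TN pigs 4 and 5, CR HS pigs 5 and 6) from all others. A second gap of 1.48 left 13 pigs between 7.76 and 9.86, of which 5 were CR and 8 LW, and 18 pigs between 11.34 and 12.90. All of those 18 were the pigs above the gap of COX1. F1 minus CR was 4.28 ± 0.66 (adjusted p = 0.000552, limma), F1 minus LW 2.23 ± 0.64 (adjusted p = 0.415) and CR minus LW -2.05 ± 0.66 (adjusted p = 0.151). Without CR TN pig 1 the last of these was -2.52 with an adjusted p of 0.024, and without CR HS pig 1 it was -2.41 with 0.0468.

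COX3 was low in the same 4 CR pigs. The CR TN pigs had 12.68, 11.46, 12.11, 8.04 and 7.79, and the CR HS pigs 8.07 to 12.32 (median 11.23). F1 pigs had 11.41 to 12.57 (median 12.06) in TN and 12.54 to 12.87 (median 12.68) in HS, and LW pigs 10.99 to 12.51 (median 12.33) and 11.35 to 12.78 (median 12.21). Of the other CR pigs, CR HS pig 4 (10.60) lay below all F1 and LW pigs, and the rest lay among them. F1 minus CR was 1.88 ± 0.48 (adjusted p = 0.132, limma) and CR minus LW was -1.62 ± 0.48 (adjusted p = 0.104), neither past the threshold. Both passed it without CR TN pig 1, with 2.13 (adjusted p = 0.0315) and -1.87 (adjusted p = 0.0355).

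The mitochondrial levels did not extend to every probe of these genes. The table holds 127 probes of the 13 mitochondrial genes, 4 of which are members, and 14 had a gap of at least 0.5 with 4 pigs on either side. For F1 minus CR 9 of the 127 were called (7.09%, against 0.184% of all probes), 4 on ND2, 3 on ND1, 1 on COX1 and 1 on COX2. For CR minus LW, F1 minus LW and HS minus TN 0 of the 127 were called, against 1.08%, 0.0256% and 34.8% of all probes. With at least 4 pigs on either side, the largest gap among the other probes was 0.60 in 24 of COX1, 0.24 in 4 of COX2, 0.32 in 13 of COX3 and 0.70 in 11 of ND2. Gaps that set fewer pigs apart reached 0.860 in COX1, 1.01 in COX2 and 0.760 in COX3.

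Overlapping probes were then set beside the members. The COX1 probe A_72_P721538 lay between 12.99 and 16.15, and F1 minus CR was 0.48 ± 0.27 (adjusted p = 0.941, limma). The COX2 probe A_72_P751248 lay between 12.10 and 14.61 with F1 minus CR of 0.91 ± 0.22 (adjusted p = 0.0822). Values of the COX3 probe A_72_P759028 were 11.87 to 13.70, with 0.44 ± 0.20 (adjusted p = 0.941). The ND2 probe A_72_P727968 followed its member more closely, as 33 of 35 pigs lay on the same side and F1 minus CR was 1.33 ± 0.29 (adjusted p = 0.0302). How well a transcript matches a probe and how much of it is present cannot be told apart with a single probe, and the part of either was not tested.

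AK238381, a transcript record from trachea, was low in a different group of 4 CR pigs. The CR TN pigs had 10.73, 4.90, 10.80, 5.06 and 10.77, and the CR HS pigs 5.00 to 10.68 (median 10.05). F1 pigs lay between 9.47 and 11.005 (median 9.88) in TN and between 9.77 and 11.14 (median 10.30) in HS, and LW pigs between 9.83 and 10.83 (median 10.62) and between 9.65 and 10.95 (median 10.18). The low pigs, CR TN pigs 2 and 4 and CR HS pigs 4 and 5, were not well above background, and the stretch from 5.15 to 9.47 was empty. The difference CR minus LW was -1.88 ± 0.65 (adjusted p = 0.2, limma), so a gap as wide as 4.32 did not give a difference between breeds past the threshold.

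TC550996 was low in 4 LW pigs only. LW TN pigs ranged from 5.19 to 10.46 (median 9.32) and LW HS pigs from 5.11 to 10.15 (median 7.10). All CR and F1 pigs lay between 8.29 and 10.49. These low pigs, LW TN pig 4 and LW HS pigs 4, 5 and 6, were on 2 of the 5 slides, and this is the member whose lower side spans the fewest slides. The breed difference CR minus LW was 1.55 ± 0.56 (adjusted p = 0.239, limma).

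RNASE10 was high in 5 pigs, of which 3 were CR and 2 F1. With probe A_72_P177596 the CR TN pigs had 10.92, 6.76, 6.11, 6.37 and 9.76. CR HS pigs had 5.88 to 9.73 (median 6.19), F1 TN pigs 6.16 to 10.29 (median 6.36) and F1 HS pigs 5.95 to 9.82 (median 6.11), with 1 high pig in each of these groups. The 12 LW pigs lay between 5.81 and 6.44. On the other probe the same 5 pigs lay above the gap of 3.90, and CR minus LW was 1.51 ± 0.66 (adjusted p = 0.4, limma).

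PGM1 was high in 7 pigs, 3 CR and 4 LW, and in 0 of 12 F1 pigs. With probe O5322 the CR TN pigs had 8.95, 6.02, 8.98, 6.11 and 6.17, and the CR HS pigs 5.75 to 9.01 (median 6.58). F1 pigs had 5.81 to 6.42 (median 6.07) in TN and 5.91 to 6.69 (median 6.44) in HS, below all high pigs. LW pigs had 5.84 to 9.38 (median 6.61) and 5.84 to 9.36 (median 6.38). With probe A_72_P233607, F1 minus LW was -1.05 ± 0.43 (adjusted p = 0.966, limma) and CR minus LW -0.28 ± 0.44 (adjusted p = 0.927). A further probe of the gene, A_72_P108441, lay between 6.95 and 8.17 in all pigs with a gap of 0.12, and it shares at most 6 bases with the 3 member probes, which hold a common run of 55 bases.

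TNNI1 was low in 4 pigs, CR TN pigs 1 and 2, F1 TN pig 6 and F1 HS pig 6. F1 HS pig 5 (8.00) lay alone between the widest gap of 1.63 below it and a second gap of 1.37 above it. The CR TN pigs had 5.37, 6.38, 10.66, 10.50 and 10.89, and the CR HS pigs 9.70 to 11.38 (median 10.26). F1 pigs had 5.91 to 12.66 (median 11.23) in TN and 5.36 to 12.07 (median 10.94) in HS, and all 12 LW pigs lay between 11.36 and 12.22. A probe with the identical 60 bases, A_72_P077691, had a gap of 1.23, and a further probe of the gene, A_72_P668087, one of 1.32. Both are below the threshold of 1.5 and so are no members, although all 35 pigs lay on the same side as with the member. Probes of the same sequence thus split the pigs alike and differed in the width of the gap.

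Other genes with several probes had separate levels on 1 probe only. For HSPE1 (probe O8477) 6 pigs lay below the stretch from 7.06 to 9.04, of which 5 were F1 and 1 LW, and the other 5 probes of the gene had gaps of at most 0.15 with 4 pigs on either side (0.27 with any number). F1 minus CR was -1.40 ± 0.45 (adjusted p = 0.428, limma). For SOD2 17 pigs lay above the stretch from 5.48 to 6.98, 11 of them LW, 3 CR and 3 F1, and the other 7 probes had gaps of at most 0.41 with any number of pigs on either side. F1 minus LW was -2.10 ± 0.53 (adjusted p = 0.199) and CR minus LW -1.79 ± 0.54 (adjusted p = 0.111). The latter passed the threshold without CR TN pig 1 (-2.14, adjusted p = 0.0233), CR HS pig 6 (-2.05, 0.0459) or LW TN pig 6 (-2.05, 0.0371).

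Climate was set against these levels in the same fit. For HS minus TN 34.8% of all probes were called and 0 of 28 members, with 0 to 2 called in the other fits. The SE of this difference was 0.28 to 0.65 in the members, which were picked for a wide spread between pigs. So the 0 calls are a description and do not show that climate left these levels unchanged. Day of slaughter and pen, which lay within a climate in the study, were not in the fit. The study, whose model held them along with the parents, reported far fewer probes for blood at the same threshold. So the 34.8% is a share of this fit and not of probes known to respond to heat. The median absolute difference was 0.33 in the members and 0.17 over all probes. The probe A_72_P774083 was the only member with pigs of 1 climate alone on one side: its 4 low pigs, F1 HS pigs 5 and 6 and LW HS pigs 5 and 6, were all under HS, and HS minus TN was -0.95 ± 0.38 (adjusted p = 0.0504, limma). F1 HS pigs had 6.08 to 10.78 (median 8.60) and LW HS pigs 6.06 to 10.30 (median 9.22), whereas CR HS pigs lay between 9.76 and 10.62 and all 17 TN pigs between 8.73 and 10.68. It overlaps a probe of RPL6, a protein of the large ribosomal subunit, by 46 bases with the differences A1C, T3G and C23A. On that RPL6 probe, A_72_P756548, the same 4 pigs were low, with a gap of 1.21. It had the widest gap of the 7 RPL6 probes that share a run of at least 20 bases with the member. On the others the gap with 4 pigs on either side was 0.09 to 0.21, and 11 to 34 of 35 pigs lay on the same side as with the member.

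TC529750 was high in 7 pigs, 4 of them F1 HS, 2 LW HS and 1 LW TN, and 6 of the 7 were on slides 1 and 2. F1 HS pigs had 4.90 to 7.99 (median 7.52), LW HS pigs 5.01 to 7.92 (median 5.18), and all 11 CR pigs at most 5.29. HS minus TN was 0.76 ± 0.31 (adjusted p = 0.0536, limma). The probe was not well above background on any CR HS array (mean 5.01). Against the background floor of these arrays the mean of F1 HS pigs (6.79) was 3.03-fold higher. As only 4 of 6 F1 HS arrays were well above background, this fold is not a lower bound. For the interaction of breed and climate 0% of all probes and 0 members were called. The smallest adjusted p over all probes was 0.278 in limma.

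The remaining members divided pigs of all 3 breeds. TC534130 was high in 12 pigs (2 CR, 3 F1, 7 LW), TOR3A in 26 (6 CR, 11 F1, 9 LW), TC526355 in 26 (9 CR, 11 F1, 6 LW) and EV893191 in 26 (7 CR, 11 F1, 8 LW). None of these 4 was called in a contrast. TC526355 (gap 1.54), EV893191 (1.52) and SOD2 (1.51) lay just inside the threshold, and TC528319 (1.49, 27 pigs above), TC558835 (1.44, 22 above) and TC577252 (1.39, 30 above) just outside it.

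The members were also counted in lists of gene families. Of 439 probes of ribosomal proteins 1 was a member (0.228%), and of 118 heat shock probes 1 (0.847%), against 0.0717% of all probes. Each of these shares rests on 1 probe. None of 62 probes of the major histocompatibility complex, 48 of NK and leukocyte receptors, 44 of interferon-stimulated genes, 55 of detoxification genes or 24 of olfactory receptors was a member. The lists of immunoglobulin chains (9 probes), T cell receptor (6), guanylate binding and GIMAP genes (7) and immediate early genes (10) held 0 as well. At a share of 0.0717%, lists this short would mostly hold 0 members in any case, so these counts tell nothing about the families.

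The share of probes well above background ranged from 55.2% to 68.0% over the arrays. Each of the 5 slides held pigs of all 3 breeds and both climates. Of the 14 breed differences called in members, 13 had the same sign on 5 of 5 slides, and the exception was TC558494 for CR minus LW (4 of 5, from -2.87 to 0.25). The slides are parts of the arrays on which these differences were called, so this agreement is a description and no replication. A slide held 1 to 3 pigs of a breed, and slide 5 held 1 CR and 1 F1 pig. The 14 include both probes of LOC100519082, which have the same sequence. Within slides, CR minus LW of SELENOF ran from 2.54 to 3.24, that of LOC100524282 from -5.31 to -1.64, and F1 minus CR of COX1 from 1.75 to 5.48. F1 minus CR of AK230483 (A_72_P788198) ran from -6.68 to -0.17. Markers of blood cell types, 85 probes of 41 genes in 7 lists, held 0 members, and 5 of them were called for CR minus LW (5.88%, against 1.08% of all probes). These were 3 of 18 probes of red cell precursors (16.7%), 1 of 18 of T cells (5.56%) and 1 of 6 of B cells (16.7%). The mean level of the red cell list was 10.33 to 12.09 in CR, 9.93 to 12.91 in F1 and 10.89 to 12.12 in LW pigs, so the breeds overlapped, and the part of cell composition in the levels was not tested.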

How the data were processed

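The authors quantified each array with Feature Extraction 10.10.1.1, normalized between arrays by quantiles, retained expressed probes and deposited log2 values; limma is also named in the submitters' processing notes. The deposited scanner files gave intensity per spot and flags of 0 or 1 (well above background, outlier), which the authors took from the same software. The log2 table was used as deposited. Recomputed quantile values had r = 0.999971 with it (median absolute difference 0.0235). There were 217 flagged spots, set to missing in the recomputed values, and 0 saturated spots. The 75th percentile of intensity ranged from 112 to 329.

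Gaps were found in Python 3.11.15 (pandas 2.3.3, numpy 2.4.6). Contrasts were fitted with limma 3.58.1 in R 4.3.3 (lmFit, eBayes, two-sided, breed and climate as terms, Benjamini-Hochberg over 39072 probes), a procedure tested on simulated data. The simulated pigs were independent, with normally spread values and no separate levels, so that test does not cover the members. The interaction was a moderated F test over 6 group means. The random effects of the study (pen, day of slaughter, father, mother) could not be fitted without labels. The number of arrays limits the precision. Slides came from the barcode in the names of the scanner files. For bounds ("at least") and folds against a background floor, each dim array was given its probe value or the lowest log2 value of any probe well above background there, whichever was higher. Arrays of the brighter group entered as read, so a fold is a lower bound only where all of them were well above background.

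Members and lists were chosen with earlier results of these data known. Probes named were genes with several member sequences, the widest gaps, the called members with the largest differences, members split by breed, and those next to the threshold. The other members are given for completeness. Overlapping probes share a run of at least 20 bases. These pairs, the within-slide values and the search for probes with the same split were added after the data had been seen. Alternatives covered the gap, the number of pigs per side, normalization, slide, array weights, a filter on dim probes, group means and leaving out each pig. Symbols came from the files or from RefSeq. Coordinates are not given, as a genome was not used here.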

Additional observations from a re-analysis of the deposited data

Results flagged for a closer look

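In each group of 5 or 6 pigs the highest and the lowest pig were compared with the others by Dixon's ratio of the gap to the range, at its 95% critical value. Chance alone gives about 5% of groups with a pig apart. Over the 26 sequences and 6 groups this held in 31 of 156 groups (19.9%), 21 times for a high and 10 times for a low pig. These probes were chosen by their wide gaps, so this share is a description. All values below are log2 intensities, with the nearest pig of the same group in brackets for some.

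For AK230483 the probe A_72_P788198 gave CR TN pig 5 at 5.11 (nearest 11.09), CR HS pig 2 at 5.30, F1 TN pig 2 at 10.92 (nearest 5.14) and F1 HS pig 4 at 11.31. Its other probe, A_72_P742057, gave CR HS pig 2 at 10.46, F1 TN pig 2 at 12.86 and F1 HS pig 4 at 13.12. RNASE10 stood apart in CR HS pig 5, F1 TN pig 6 and F1 HS pig 6, at 9.62, 10.05 and 10.04 with 1 probe and at 9.73, 10.29 and 9.82 with the other. LOC100519082 was low in CR TN pig 1 at 9.88 (nearest 14.39) and high in LW HS pig 4 at 14.80 (nearest 10.00). PGM1 was high in CR HS pig 4, at 9.10 and 8.75 on its different sequences.

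Of the mitochondrial members, ND2 had CR HS pig 1 at 12.83 (nearest 9.72) and F1 TN pig 4 at 12.06, and COX1 had CR TN pig 1 at 12.61 (nearest 8.73). SOD2 was high in CR HS pig 6 at 8.44 and in F1 HS pig 3 at 7.62. TOR3A was low in LW TN pig 3 at 4.82. TC550996 was low in LW TN pig 4 at 5.19, and TC529750 was high in LW TN pig 2 at 7.40. TC534130 was high in CR TN pig 4 at 8.06, in CR HS pig 1 at 7.84 and in F1 TN pig 3 at 8.28, and low in LW TN pig 2 at 5.83. TC526355 was low in F1 TN pig 3 at 6.04, and EV893191 was low in F1 TN pig 4 at 4.91.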

How the results depend on the processing

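The number of members was 28. It was 60 with a gap of at least 1.0 and 11 with at least 2.0, 48 when arrays were scaled on the 75th percentile (27 of the 28 kept) and 18 after normexp background correction (18 kept). With at least 3 or 6 pigs per side it was 28 and 19, with recomputed quantile normalization 28 (28 kept), and without each pig in turn 25 to 30. Of 54 member differences followed, 0 reversed under these alternatives. Array weights raised the calls from 421 to 1524 for CR minus LW and from 72 to 152 for F1 minus CR, and the other settings gave 395 to 466 and 70 to 87. Without each pig in turn these counts were 299 to 474 and 57 to 95. Members called were 7 to 11 (7 to 10 without each pig) for CR minus LW and 6 to 8 (5 to 8) for F1 minus CR.

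For F1 minus LW the 10 calls became 6 with recomputed quantile normalization, 4 scaled on the 75th percentile, 0 with normexp, 2 with slide as a block, 39 with array weights, 16 with group means and 0 to 19 without each pig. They were 3 higher and 7 lower in F1, but 3 higher and 1 lower scaled on the 75th percentile. Members called there were 0 in each of these fits and 0 to 1 without each pig, with SELENOF called without F1 HS pig 2. For HS minus TN 13601 probes were called, 11594 to 16429 without each pig. The 0 members called became 2 with recomputed quantile normalization, 1 with normexp, 1 with slide as a block and 2 with group means, and 0 to 2 without each pig, in each case A_72_P774083 or TC529750. The interaction gave 0 calls of probes and 0 of members under all alternatives, without each pig 0 to 0.

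Of the 14 member differences called, 13 were called under every alternative other than leaving out a pig. The exception was TC558494 for CR minus LW scaled on the 75th percentile (-2.13, adjusted p = 0.0522, limma). Without each pig in turn 12 of 14 were called throughout. Array weights added COX2 (-2.87, adjusted p = 0.00376), COX3 (-1.95, 0.0144) and TNNI1 (-1.93, 0.0462) for CR minus LW, and LOC100519082 (-3.11, 0.0485) and SELENOF (-1.52, 0.0258) for F1 minus CR. The cause of these changes was not tested. The filter on dim probes removed no probe.

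No paired analysis was possible because the replicate numbers follow the order of the sample records and pair no animals. The labels give no litter, sire or dam, so their part in these levels, within or between breeds, was not tested, and the SE does not allow for siblings among the pigs. On probes whose lower side was at background the size of a gap is limited by that background.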
